A study of Mus musculus with 6 samples.

Results

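The mRNA of 10 endothelial genes was followed in mammary epithelial organoids: Cldn5, Cdh5, Pecam1, Esam, Kdr, Flt1, Tie1, Tek, Eng and Emcn. They were picked by name from a table of 17739 genes. Organoids are fragments of epithelium, here made from mammary glands 2 and 3 by digestion with collagenase I and Pronase and brief spins. All 6 mice were FVB females on lactation day 1. Of these, 3 were wild type and 3 carried a conditional knockout of Nmi, given as Nmi-/- in the labels, with 1 library per mouse. Replicate numbers follow the order of deposit within a genotype, so an equal number does not match mice of different genotypes. The driver of the deletion was not given in the sources used here, nor whether endothelial cells carried it. The series asks how loss of Nmi, an interferon-inducible partner of Myc and STAT proteins, adds to excess growth of the mammary epithelium. Nmi itself had 4.595, 2.82 and 2.32 FPKM in wild-type replicates 1, 2 and 3 and 0.188, 0.547 and 0.564 FPKM in knockout replicates 1, 2 and 3, so each knockout library lay below each wild-type library.

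Endothelial cells line blood and lymph vessels. In the lactating gland a dense capillary network surrounds the alveoli and delivers the glucose, amino acids and lipids from which milk is made. Endothelial cells hold together through VE-cadherin and claudins, and their survival and branching depend on VEGF receptors and on the angiopoietin receptor Tek with its relative Tie1. In bulk RNA, fewer cells of a type and less RNA per cell cannot be told apart.

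FPKM is the number of fragments scaled to gene length and to the total of the library, so levels of different genes can be compared, but a few very abundant transcripts lower the value of all others. The 20 milk protein genes held 48.3% of the FPKM sum in wild-type replicate 1 and 76.9% in knockout replicate 3, the libraries at both ends. The other 4 libraries, of both genotypes, held 61.5% to 71.2%. FPKM sums ran from 379478 to 509453, and the number of reads is unknown. Gapdh was listed between 0 and 0.0769 FPKM although nearly every cell uses it, so an entry of 0 can be a failed estimate.

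All 10 endothelial genes were measured above 1 FPKM in each of the 6 libraries, and Cldn5, Cdh5 and Pecam1 stood highest. Cldn5 encodes the main tight junction claudin of endothelium and lies on chromosome 16 of GRCm38 at 18776847 to 18778262, plus strand. It had 48.7, 47.6 and 31.6 FPKM in wild-type replicates 1, 2 and 3 and 35.4, 44.6 and 20.4 FPKM in knockout replicates 1, 2 and 3. Knockout replicate 3 was lowest and wild-type replicate 1 highest, and the genotypes overlapped. Cdh5 encodes VE-cadherin, the adhesion protein of endothelial adherens junctions, and lies on chromosome 8 at 104101625 to 104144511, plus strand. It had 35.6, 33.6 and 20.5 in wild type and 22.6, 38.8 and 19.2 FPKM in knockout mice, in the order of the replicates. Knockout replicate 2 exceeded every wild-type library, and the other 2 knockout libraries stood at the level of wild-type replicate 3. Gm29682, on the opposite strand, overlaps Cdh5 in the annotation, and the strand setting of the authors' quantification is not given in the sources used here.

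Pecam1, an adhesion molecule of endothelial contacts that leukocytes and platelets also carry, lies on chromosome 11 at 106654217 to 106750628, minus strand. It had 33.7, 25.7 and 15.0 in wild type and 18.6, 29.1 and 14.5 FPKM in knockout mice. The lowest library of each genotype was replicate 3, and these 2 values lay within 1 FPKM of each other. Esam, an adhesion molecule of endothelial tight junctions, lies on chromosome 9 at 37528078 to 37538319, plus strand. It had 8.68, 7.78 and 4.61 in wild type and 6.43, 7.83 and 4.202 FPKM in knockout mice. From highest to lowest the libraries stood in the same order as for Pecam1, and the genotypes again overlapped.

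Of the VEGF receptors, Kdr, which carries most of the growth signal, stood above Flt1, which binds the ligand tightly and restrains it. Kdr lies on chromosome 5 at 75932827 to 75978458 and Flt1 on the same chromosome at 147561604 to 147726011, both on the minus strand. Kdr had 5.90, 6.31 and 3.80 in wild type and 3.71, 7.27 and 5.43 FPKM in knockout mice. Flt1 had 2.78, 4.54 and 2.46 in wild type and 2.64, 5.36 and 3.10 FPKM in knockout mice. Both receptors were highest in knockout replicate 2, and in knockout replicate 3 they were not among the lowest 2 libraries, unlike the other 8 genes. The ratio of Flt1 to Kdr ran from 0.472 in wild-type replicate 1 to 0.736 in knockout replicate 2. Flt1 also gives rise to a secreted form without the kinase, which a single value per gene does not separate.

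The angiopoietin axis was represented by Tek, the receptor that binds angiopoietins and keeps vessels quiescent, and by Tie1, an orphan receptor that pairs with it. Tie1 lies on chromosome 4 at 118471191 to 118490061, minus strand, and Tek on the same chromosome at 94739289 to 94874976, plus strand. Tie1 had 7.75, 7.78 and 3.39 in wild type and 5.35, 7.01 and 3.94 FPKM in knockout mice. Tek had 2.40, 2.17 and 1.29 in wild type and 1.56, 2.29 and 1.22 FPKM in knockout mice, the lowest level of the 10 genes in each library. Within each genotype both were lowest in replicate 3. The ratio of Tie1 to Tek stayed between 2.62 and 3.59.

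Eng encodes endoglin, a co-receptor for BMP and TGF-beta ligands in endothelium, and Emcn encodes endomucin, a sialomucin of capillary and venous endothelium. Eng lies on chromosome 2 at 32646595 to 32682669, plus strand, and 4 annotated genes overlap it, among them Fpgs on the opposite strand. Eng had 9.55, 12.8 and 4.55 in wild type and 8.57, 12.3 and 6.02 FPKM in knockout mice, with replicate 2 highest and replicate 3 lowest in each genotype. Emcn lies on chromosome 3 at 137341067 to 137432185, plus strand. It had 14.0, 7.29 and 2.08 in wild type and 6.85, 6.56 and 4.08 FPKM in knockout mice. Its highest and lowest values were both wild type, 6.74-fold apart, while the other 9 genes spanned 1.96-fold (Kdr) to 2.82-fold (Eng) over the 6 libraries.

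**Figure D1:**
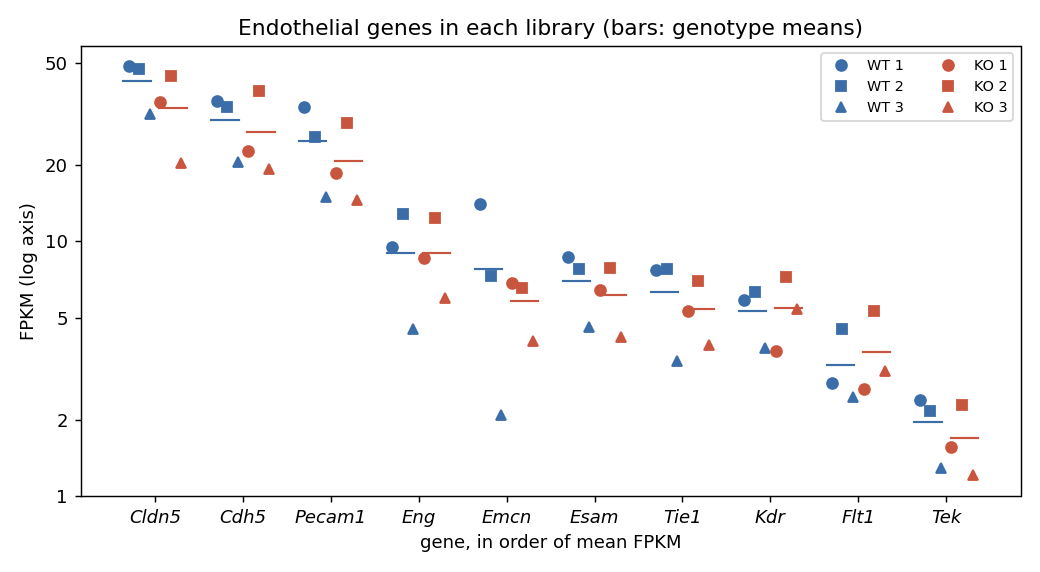
FPKM of the 10 endothelial genes on a log axis, in order of their mean over the 6 libraries, with wild type (WT, blue) and knockout (KO, red) points by replicate and a bar for each genotype mean (n = 3). The libraries of the genotypes overlap for each gene, and Emcn has the widest spread, from 2.08 to 14.0 FPKM.

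By mean FPKM over the 6 libraries the order was Cldn5 (38.0), Cdh5 (28.4), Pecam1 (22.8), Eng (8.98), Emcn (6.82), Esam (6.59), Tie1 (5.87), Kdr (5.40), Flt1 (3.48) and Tek (1.82). Cldn5 exceeded Cdh5, Cdh5 exceeded Pecam1, and Pecam1 exceeded Eng in 6 of 6 libraries, the last by 2.003-fold to 3.53-fold. From Eng down to Kdr no neighbouring pair kept its order in every library. Eng exceeded Emcn in 5 of 6, Emcn exceeded Esam in 2 of 6, Esam exceeded Tie1 in 5 of 6 and Tie1 exceeded Kdr in 3 of 6. Kdr over Flt1 and Flt1 over Tek held in 6 of 6. Cldn5, Cdh5 and Pecam1 thus stood apart from the receptors.

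The makeup of the summed signal of the 10 genes was nearly constant for some members and not for others. Tek took between 1.39% and 1.48% of the sum in each library, Esam between 4.86% and 5.76%, and Cdh5 between 20.2% and 24.1%. Cldn5 took 35.4% in wild-type replicate 3 and 24.9% in knockout replicate 3, libraries with a similar sum. Emcn took 8.30% in wild-type replicate 1 and 2.33% in wild-type replicate 3. Kdr took 6.62% in knockout replicate 3 and 3.32% to 4.51% elsewhere. Flt1 took 3.77% in that library and 1.65% in wild-type replicate 1. The VEGF receptors thus made up more of the endothelial signal in knockout replicate 3 than in the other libraries, in 1 mouse, and no test was made of it.

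The summed FPKM of the 10 genes differed among libraries of the same genotype and did not separate the genotypes. With 1 library per mouse, mouse and preparation cannot be told apart. The sum was 169, 156 and 89.3 FPKM in wild-type replicates 1, 2 and 3 and 112, 161 and 82.1 FPKM in knockout replicates 1, 2 and 3. The sums of wild-type replicate 3 and knockout replicate 3 were close together at the low end, knockout replicate 1 lay between, and the other 3 libraries, of both genotypes, were high. Wild-type replicate 3 was among the lowest 2 libraries for all 10 genes and knockout replicate 3 for 8 of them. Wild-type replicate 2 was among the highest 3 for all 10, and wild-type replicate 1 and knockout replicate 2 for 9 each. The means were 138 ± 42.8 in wild type and 118 ± 39.99 FPKM in knockout mice (SD, n = 3 per genotype), closer together than the spread within either.

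The share of milk transcripts moved with this order, and its part in the result was not tested. From the lowest milk share to the highest the libraries were wild-type replicates 1 and 2, knockout replicates 2 and 1, wild-type replicate 3 and knockout replicate 3. The summed endothelial FPKM followed this order except that knockout replicate 2 lay above wild-type replicate 2. Expressed per 1000000 FPKM outside the milk protein genes, the sum was 863, 948 and 644 in wild type and 742, 1008 and 697 in the knockout. The highest library was then 1.57-fold above the lowest, against 2.06-fold as deposited, and wild-type replicate 3 was the lowest. On that scale the genotype means were 818 ± 157 for wild type and 816 ± 168 for knockout mice (SD, n = 3 each). Not all members gave knockout replicate 3 a low place on it. Kdr was highest there, at 46.1 per 1000000, and lowest in knockout replicate 1, at 24.6. Cldn5 was lowest there, at 173, and highest in wild-type replicate 2, at 289.8. Emcn still had the widest range, 4.77-fold.

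**Figure D2:**
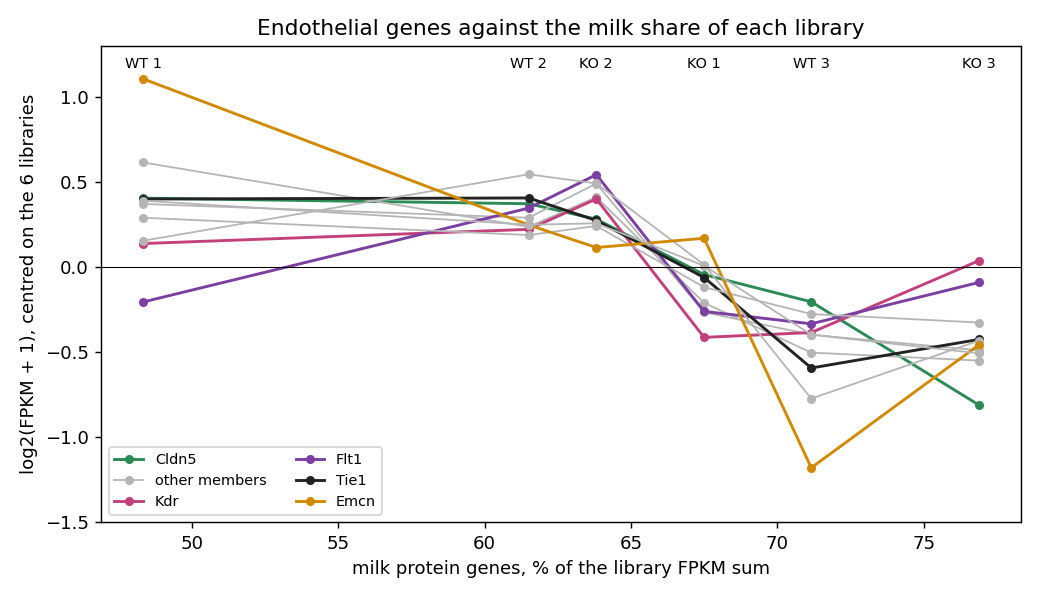
log2(FPKM + 1) of each endothelial gene, centred on its mean over the 6 libraries, against the share of milk protein genes in the FPKM sum of the library (48.3% to 76.9%); lines join the values of 1 gene, and gray lines are the genes not named in the legend. Tie1 lies closest to the mean of the 10 genes, Emcn leaves it in wild-type replicates 1 and 3, Flt1 lies below it in wild-type replicate 1, and in knockout replicate 3 Kdr and Flt1 lie above it and Cldn5 below it.

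Epithelial transcripts differed between libraries more widely than endothelial ones. The 11 epithelial markers, keratins and junction genes among them, summed to 7050, 4929 and 3285 in wild type and 3158, 4972 and 1284 FPKM in knockout mice, a 5.49-fold range. Knockout replicate 3 was thus far below the rest, while its endothelial sum was close to that of wild-type replicate 3. The 10 endothelial genes came to 2.40, 3.16 and 2.72 FPKM per 100 FPKM of epithelial markers in wild type and to 3.54, 3.24 and 6.39 in the knockout. These ratios did not overlap between the genotypes, and without knockout replicate 3 the 2 remaining knockout values lay just above the highest wild-type value. Of single genes tested, 4.61% had no overlap. All 11 epithelial markers had a log2 fold change, knockout minus wild type, below 0. Their median was -0.74 against -0.21 over all genes tested, and 0 passed an adjusted p of 0.05 with limma. Per 1000000 FPKM outside the milk protein genes the endothelial means were 818 in wild type and 816 in the knockout. On that scale the epithelial means were 29891 ± 6137 in wild type and 20999 ± 10101 in the knockout (SD, n = 3 each). The genotypes overlapped there, with 23686 to 35958 in wild type and 10905 to 31107 in the knockout. The ratio was formed after the values had been seen, and no test was made of it.

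Among the members, Tie1 followed the mean centred profile of the 10 genes most closely, with a root mean square difference of 0.068 on the log2(FPKM + 1) scale over the 6 libraries. Esam (0.0918) and Cdh5 (0.1001) came next, and Flt1 (0.293) and Emcn (0.438) lay farthest from it. Of the other genes tested, the 5 most like that profile were Elk3 (0.0519), an ETS-family transcription factor, Kctd17 (0.0532), Micall1 (0.0539), Pcdhgc3 (0.0593) and Pmp22 (0.0634), against a median of 0.289 over all of them. All values of a library share its scaling, so likeness over 6 libraries is a description only.

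Promoter sequence is shown for 3 members that differ in how they followed the common profile: Tie1, the closest, Emcn, the farthest, and Cldn5, the most abundant. Each run is the RefSeq window on GRCm38.p6 from 250 bases before to 50 bases after the annotated start, written 5′ to 3′ on the strand of the gene. Capitals mark GGAA or its reverse complement TTCC, the core bound by ETS factors, a family that many endothelial genes depend on. The windows are chr4:118489800-118490099 for Tie1, chr3:137340828-137341127 for Emcn and chr16:18776597-18776896 for Cldn5.
Tie1: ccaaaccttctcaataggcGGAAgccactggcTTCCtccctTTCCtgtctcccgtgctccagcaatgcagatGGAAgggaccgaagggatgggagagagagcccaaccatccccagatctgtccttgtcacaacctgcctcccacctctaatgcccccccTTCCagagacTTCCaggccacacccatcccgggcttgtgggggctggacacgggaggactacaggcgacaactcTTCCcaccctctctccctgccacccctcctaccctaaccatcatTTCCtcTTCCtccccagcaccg
Emcn: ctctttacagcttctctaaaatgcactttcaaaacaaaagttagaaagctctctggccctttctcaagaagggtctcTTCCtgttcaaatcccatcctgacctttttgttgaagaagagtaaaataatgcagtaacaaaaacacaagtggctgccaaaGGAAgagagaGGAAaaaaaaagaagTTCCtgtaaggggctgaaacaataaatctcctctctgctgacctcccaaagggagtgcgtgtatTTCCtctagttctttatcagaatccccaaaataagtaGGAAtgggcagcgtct
Cldn5: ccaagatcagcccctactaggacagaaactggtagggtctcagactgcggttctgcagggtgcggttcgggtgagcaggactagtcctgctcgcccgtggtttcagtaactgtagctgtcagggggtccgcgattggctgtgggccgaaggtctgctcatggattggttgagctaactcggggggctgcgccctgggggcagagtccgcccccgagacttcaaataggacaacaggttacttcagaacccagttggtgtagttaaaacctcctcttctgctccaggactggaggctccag
Windows were found for 7 of the 10 members, all but Cdh5, Pecam1 and Esam. On both strands the Tie1 window held 9 copies of the core, Emcn 6, Kdr 5, Eng and Flt1 4 each, Tek 2 and Cldn5 0. The core is common: 95.98% of the 32851 windows of the same length held at least 1 and 4.015% held none, with a median of 3. A share of 1.59% held 9 or more, a cutoff taken from Tie1, the highest count of the 7. Of the longer motifs searched, ACAGGAAG was in the Emcn window and in 3.58% of all windows, and ACCGGAAG was in 0 of the 7 and in 2.30% of all. Both contain the core. The GATA motif AGATAA was in the Tek window (11.2% of all), the SOX core ACAAT in those of Emcn and Tek (31.02% of all) and the KLF motif CACACCC in that of Tie1 (7.95% of all). A match is a description of letters, not of a bound site.

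No endothelial gene differed between the genotypes beyond the spread of the mice. With limma on log2(FPKM + 1) and Benjamini-Hochberg adjustment over the 9767 genes tested, 0 of the 10 passed an adjusted p of 0.05, where 0% of all genes tested did, and 0 passed an unadjusted p of 0.05, where 1.33% of all genes did. The groups overlapped for all 10, against 4.61% of all genes with no overlap. The log2 fold change, knockout minus wild type, was below 0 for 7 members and above 0 for 3, and 81.7% of all genes lay below 0. The median was -0.14 over the members and -0.21 over all genes tested, and 8 of the 10 lay above the latter, a count that was 3 when wild-type replicate 3 was left out and 5 when knockout replicate 2 was. The smallest p was that of Cldn5, at 42.6 ± 9.58 in wild type against 33.5 ± 12.2 FPKM in knockout mice (SD, n = 3 per genotype). The log2 fold change of Cldn5 came to -0.38 (SE 0.33, with a 95% confidence interval from -1.11 to 0.35, limma adjusted p = 0.768). For scale, Nmi had the smallest adjusted p of all genes tested, 0.372 with limma.

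The intervals show how much could have gone unseen. Cdh5 had a log2 fold change of -0.18 (interval -0.90 to 0.55) and Pecam1 of -0.23 (-0.999 to 0.53). For Esam it was -0.16 (-0.80 to 0.48), for Tie1 -0.14 (-0.83 to 0.55) and for Tek -0.13 (-0.64 to 0.37). Kdr had 0.02 (-0.59 to 0.62), Flt1 0.13 (-0.48 to 0.73) and Eng 0.05 (-0.74 to 0.83). Emcn had the widest, -0.12 (-1.15 to 0.91), with 7.80 ± 5.99 in wild type and 5.83 ± 1.52 FPKM in knockout mice. Tek had the narrowest, with a half-width of 0.51 on the log2 scale.

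The direction of these differences depended on the scale and on single mice. Below 0 were 7 members as deposited, 1 after trimmed-mean rescaling and 2 after rescaling to the sum outside the milk protein genes. Without wild-type replicate 1 it was 4 members, without knockout replicate 3 it was 3 and without both 0, and without wild-type replicate 3 or without knockout replicate 2 all 10 were. With library quality weights 9 members passed the threshold, all lower, together with 7740 of the 9767 genes tested, but the estimate of the weights did not converge and rested almost wholly on wild-type replicate 2 and knockout replicate 1.

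**Figure D3:**
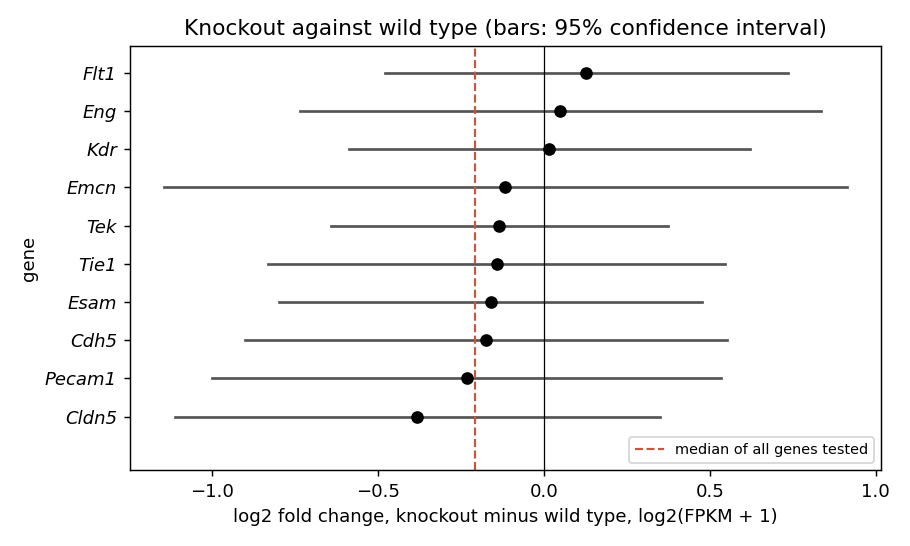
log2 fold change (knockout minus wild type, on log2(FPKM + 1)) of each endothelial gene with its 95% confidence interval from limma (n = 3 each), and the median of all genes tested as a dashed line. Every interval includes 0 and the dashed line at -0.21, and the estimates run from -0.38 (Cldn5) to 0.13 (Flt1).

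Ligands and partners of these receptors did not all share the order of the members over the libraries. Vegfa, the ligand of Kdr and Flt1, was nearly level, with 25.7, 30.1 and 27.3 in wild type and 25.7, 28.8 and 30.4 FPKM in knockout mice, a 1.18-fold range. Angpt1, the activating ligand of Tek, had 1.004, 4.23 and 7.08 in wild type and 6.93, 4.80 and 14.9 FPKM in knockout mice. It ran nearly opposite to Tek, lowest in wild-type replicate 1 and highest in knockout replicate 3, and its order was that of the milk share. Angpt2, which competes with it, had 4.79, 2.496 and 1.172 in wild type and 1.39, 2.36 and 1.203 FPKM in knockout mice, with the high values on the side where Tek was high. Per mouse, Angpt1 exceeded Angpt2 in all libraries but wild-type replicate 1.

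Partners that sit on endothelial cells were measured at low levels, apart from the TGF-beta receptor Tgfbr2, the most abundant gene of the list (34.4 to 71.9 FPKM), and the signal transducer Smad1 (7.41 to 20.97 FPKM), which other cells also use. The VEGF co-receptor Nrp1 ran from 1.37 to 2.64 FPKM, the phosphatase Ptprb, which acts on Tek, from 1.19 to 2.65 FPKM, and the BMP receptor Acvrl1, which works with endoglin, from 3.32 to 4.94 FPKM. Of 20 ligands, co-receptors and signalling partners in the table, 16 were tested, 12 with a log2 fold change below 0 and 4 above, and 0 passed the adjusted threshold with limma (0 at an unadjusted p of 0.05). The smallest p of these was that of Angpt1, with a log2 fold change of 1.04 (SE 0.49, limma adjusted p = 0.768). The median of the list was -0.15.

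Endothelial transcription factors were present at low to moderate levels. Of 14 in the table, 9 were tested, 6 below 0 and 3 above, with a median of -0.23 and 0 past the adjusted threshold with limma (0 at an unadjusted p of 0.05). Epas1, a hypoxia-inducible factor, ran from 14.8 to 24.3 FPKM and the ETS factor Ets1 from 5.85 to 15.4 FPKM. Klf2, which responds to blood flow, had 2.60, 7.90 and 4.42 in wild type and 10.6, 2.92 and 7.38 FPKM in knockout mice, an order unlike that of the members, with wild-type replicate 1 lowest.

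Other markers of blood vessel endothelium were present beside the members, and their sum followed the same libraries. The 24 genes summed to 236, 238 and 121 in wild type and 183, 239 and 124 FPKM in knockout mice, again lowest in replicate 3 of each genotype. The water channel Aqp1, which other cells also carry, was the most abundant (34.3 to 76.0 FPKM), followed by Selp, the P-selectin of venules and platelets (5.87 to 24.6 FPKM), and Gpihbp1, which anchors lipoprotein lipase in capillaries (11.2 to 21.2 FPKM). Of the 22 tested, 12 lay below 0 and 10 above, with a median of -0.02 and 0 past the adjusted threshold with limma (0 at an unadjusted p of 0.05).

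The 13 arterial, venous and capillary markers summed to 37.7 to 58.3 FPKM, above the sum of the 7 lymphatic ones in each library. Single genes of the lists overlapped in level. Rgcc, found in capillaries, ran from 9.59 to 19.0 FPKM, Ephb4, a venous receptor that epithelium can also express, from 2.83 to 13.5 FPKM, and Ackr1, a marker of venules, from 2.13 to 13.5 FPKM. Of the 11 subtype markers tested, 7 lay below 0 and 4 above, with a median of -0.15. With limma 0 passed the adjusted threshold and 1 an unadjusted p of 0.05, where 1.33% of all genes tested passed the latter. That gene, Apln, the apelin ligand of tip cells, is named after its values were seen. It had 0.377, 1.32 and 2.51 in wild type and 2.07, 2.01 and 11.2 FPKM in knockout mice (limma adjusted p = 0.768). Knockout replicate 3 was far above the rest. From lowest to highest its libraries stood in the order of the milk share, as for Angpt1, and the part of the milk share was not tested. The 7 lymphatic markers summed to 3.997 to 9.44 FPKM. Pdpn, which myoepithelial cells also carry, had the highest mean of them (2.07 to 6.47 FPKM), and Prox1, the factor that defines lymphatic identity, ran from 0.278 to 1.54 FPKM.

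Markers of leukocytes and platelets, cells that also carry Pecam1, were measured at low levels. The 10 leukocyte markers summed to 6.51 to 9.50 FPKM, led by the macrophage gene Cd68. Cd68 had 6.92, 6.84 and 6.94 in wild type and 5.03, 5.65 and 3.35 FPKM in knockout mice. It made up most of the sum in each wild-type library, but 3.35 of 8.30 FPKM in knockout replicate 3. Tyrobp, an adaptor of myeloid receptors, had 0.203, 0.208 and 0.242 in wild type and 0.324, 0.781 and 0.992 FPKM in knockout mice. The genotypes did not overlap for either gene, with Cd68 lower and Tyrobp higher in the knockout. Cd3e of the same list did not overlap either, at 0 in each wild-type library and 0.0255 to 0.118 FPKM in knockout mice. Cd68 did not pass the adjusted threshold (log2 fold change -0.50, limma adjusted p = 0.768). Tyrobp and Cd3e were under the minimum level for the test. Of all genes tested 4.61% had no overlap, a share that includes Cd68 but not Tyrobp or Cd3e. Laptm5 ran from 0.575 to 2.08 FPKM, and the pan-leukocyte gene Ptprc from 0.0486 to 0.303 FPKM, both highest in knockout replicate 3. The platelet gene Pf4 ran from 0 to 0.326 FPKM, and the 6 platelet markers, with Itga2b and Gp1bb the most abundant, summed to 0.616 to 1.33 FPKM. Pecam1 ran from 14.5 to 33.7 FPKM. The FPKM of different genes does not measure the share of a cell type, and the source of Pecam1 was not tested. Markers of mural cells, which wrap small vessels, were higher. Rgs5, a pericyte gene, had 18.7, 16.7 and 8.94 in wild type and 15.3, 18.8 and 12.2 FPKM in knockout mice. Like the sum of the members, it was lowest in replicate 3 of each genotype. Pdgfb, a pericyte-recruiting ligand and the most abundant gene of that list, did not share this order, with 28.2, 15.3 and 12.1 in wild type and 5.92, 31.3 and 5.96 FPKM in knockout mice. Its log2 fold change was -0.67, while the other 7 of the 8 tested lay above 0. Mcam ran from 4.82 to 10.5 FPKM. The 10 genes of the pericyte and smooth muscle list, Pdgfb included, summed to 35.5 to 63.5 in wild type and 34.1 to 74.5 FPKM in knockout mice. As Pdgfb is a ligand that acts on pericytes, these sums are not a measure of mural cells alone. The 8 fibroblast markers summed to 23.0 to 53.1 in wild type and 33.1 to 60.3 FPKM in knockout mice, and in knockout replicate 3 they reached 52.8 FPKM where the sum of the members was lowest. The collagen genes Col3a1 (7.56 to 22.5 FPKM) and Col1a1 (3.53 to 12.8 FPKM) and the proteoglycan gene Dcn (7.15 to 12.04 FPKM) led them, each lowest in wild-type replicate 3. Of the fibroblast markers 5 were tested, 5 of them above 0, with 0 past the adjusted threshold with limma (0 at an unadjusted p of 0.05).

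The adipocyte list gave a high sum from 1 gene. Fabp4, a fatty acid binding protein of adipocytes and of capillary endothelium, had 672, 498 and 212 in wild type and 264, 440 and 157 FPKM in knockout mice. Adipoq, which defines adipocytes, was at or under 0.0957 FPKM in each library and listed at 0 in 4 of them. Fabp4, like the sum of the members, was highest in wild-type replicate 1 and lowest in knockout replicate 3. Its range over the libraries was 4.28-fold against 2.06-fold for that sum. The epithelial markers had the same end libraries and a 5.49-fold range, and Fabp4 ran in the reverse order of the milk share. The cell source of Fabp4 was not tested. Red blood cell genes did not follow the members. The 5 genes of that list summed to 4.96 to 12.03 FPKM in wild type, 6.06 and 7.32 FPKM in knockout replicates 1 and 2 and 26.3 FPKM in knockout replicate 3.

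**Figure D4:**
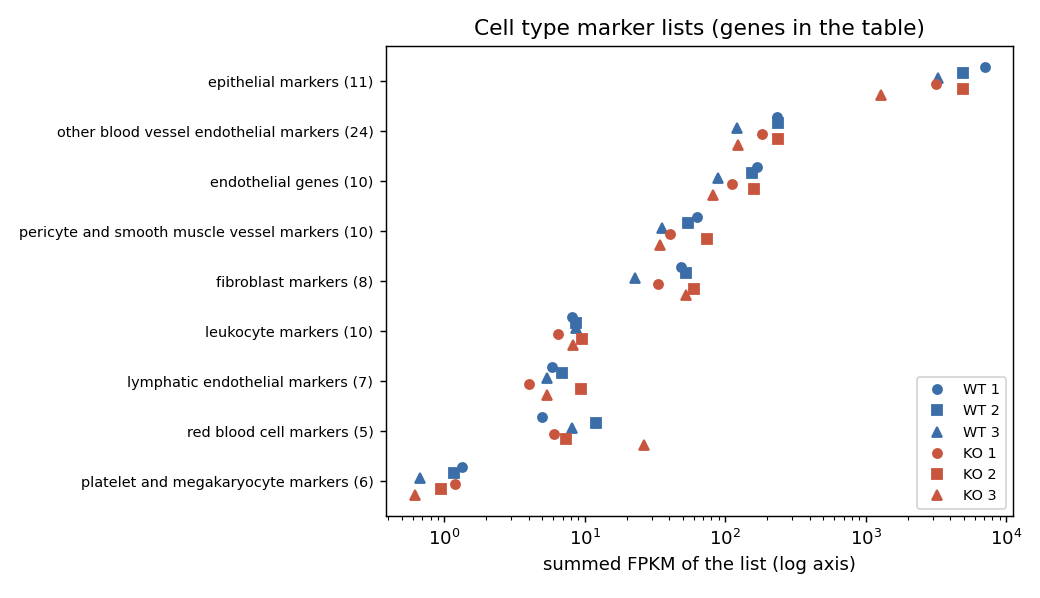
Summed FPKM of cell type marker lists in each library on a log axis, with the number of genes in the table in parentheses. The 10 endothelial genes (82.1 to 169 FPKM) lie under the epithelial markers (1284 to 7050 FPKM) and above the leukocyte (6.51 to 9.50 FPKM) and platelet lists (0.616 to 1.33 FPKM).

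Within their own families the endothelial junction genes stood below the most abundant epithelial gene in each library. Of 20 claudins in the table Cldn5 ranked 4 or 5 in each library and held 2.503% to 4.82% of the claudin sum. The epithelial claudin Cldn4 had 9.30 to 25.6 times its FPKM, the lowest ratio in knockout replicate 1 and the highest in knockout replicate 2. Cldn3 ran from 75.2 to 502 FPKM and Cldn7 from 63.8 to 204 FPKM, both with knockout replicate 3 lowest. Of 10 cadherins Cdh5 ranked 2 in each library, behind the epithelial Cdh1, and held 11.4% to 21.8% of the cadherin sum. Cdh1 had 6.98, 4.79 and 5.73 times the FPKM of Cdh5 in wild type and 4.46, 4.67 and 2.86 times in the knockout, so the 2 came closest in knockout replicate 3, where Cdh1 was 54.8 FPKM.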

How the data were processed

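RNA-seq was done on organoids of 6 mice. The values are FPKM as the authors deposited them, 1 row per mouse. FastQC, TopHat, SAMtools and Cufflinks are named as tools, and mm10 and GRCm38 as builds, per the submitters' processing notes. No version, annotation, strand setting or depth was given in the sources used here, so no counting interval was computed and precision comes from the spread between mice. Mice are numbered 1 to 3 within a genotype in order of deposit. Labels name separate mice but no batch.

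The 9767 of 17739 genes that reached 1 FPKM in 3 or more libraries, all 10 members included, were compared on log2(FPKM + 1) with limma 3.58.1 in R 4.3.3 (intensity trend, two-sided, Benjamini-Hochberg over all genes tested, threshold 0.05). The pseudocount of 1 understates changes of low genes. With 3 against 3 mice an exact permutation p for a single gene cannot go below 0.1. The fit was tested on simulated data with noise drawn independently for each gene. Shifts shared by a whole library were not simulated, so that test does not cover them. Alternatives were other pseudocounts, no filter, rescaling by trimmed means, outside milk or by quantiles, library weights, milk share as a covariate, and leaving out libraries. The 10 members and the 15 further marker lists were chosen with earlier results of these data known, so no p is given for a list. All members are named. From each other list the 3 genes with the highest mean could be named, beside fixed partners, relatives and markers of other cells (Vegfa, Angpt1, Angpt2, Nrp1, Ptprb, Acvrl1, Cldn3, Cldn4, Cldn7, Cdh1, Ptprc, Pf4, Csn2, Nmi). Adipoq, Apln, Cd3e, Prox1 and Gapdh were added after their values were seen. Coordinates are from GENCODE mouse release M21 on GRCm38, promoters from RefSeq on GRCm38.p6.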

Additional observations from a re-analysis of the deposited data

How the results depend on the processing

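No member passed the adjusted threshold under 15 of the 16 alternatives to the fit with limma. With library quality weights by the default estimate 9 members passed (0 as reported). That estimate did not converge and gave weights of 27.6 to wild-type replicate 2 and 39.2 to knockout replicate 1 and 0.111 to 0.262 to the other libraries. With gene-by-gene weights, an alternative chosen after seeing the data, 0 passed. The smallest adjusted p of a member over the alternatives ran from 2.91e-08 to 1. The median log2 fold change of the members was -0.14 as reported and ran from -0.45 (default weights) to 0.22 (milk share as a covariate), where the SD of the members' mean profile within a genotype was 0.44. Of 160 comparisons of a member under an alternative, 49 turned the direction; the cause was not tested. After trimmed-mean rescaling the turned log2 fold changes were Cdh5 0.066, Pecam1 0.0078, Tie1 0.074, Tek 0.025, Emcn 0.11 and Esam 0.055. After rescaling to the sum outside the milk protein genes the turned log2 fold changes were Cdh5 0.035, Tie1 0.046, Tek 0.0053, Emcn 0.084 and Esam 0.027. After quantile normalization the turned log2 fold changes were Cdh5 0.061, Tie1 0.073, Tek 0.0201, Emcn 0.11 and Esam 0.048. With the default library weights the turned log2 fold changes were Kdr -0.62, Flt1 -0.59 and Eng -0.52. With gene-by-gene weights the turned log2 fold changes were Kdr -0.37, Flt1 -0.33 and Eng -0.30. With the milk share as a covariate the turned log2 fold changes were Cdh5 0.20, Pecam1 0.25, Tie1 0.26, Tek 0.12, Emcn 0.64 and Esam 0.20. Without wild-type replicate 1 and knockout replicate 3 together the turned log2 fold changes were Cldn5 0.035, Cdh5 0.17, Pecam1 0.23, Tie1 0.20, Tek 0.11, Emcn 0.61 and Esam 0.21. Leaving out 1 library at a time gave these ranges: Cldn5 -0.62 to -0.072, Cdh5 -0.46 to 0.025, Pecam1 -0.54 to 0.017, Esam -0.40 to 0.052, Kdr -0.18 to 0.23, Flt1 -0.11 to 0.33, Tie1 -0.47 to 0.035, Tek -0.31 to -0.0054, Eng -0.33 to 0.33 and Emcn -0.73 to 0.41. The median of the members then ran from -0.41 to 0.03, and 0 members passed in each. The median of all genes was -0.21 as deposited, -0.007 after trimmed-mean rescaling, -0.033 after rescaling outside milk and -0.011 after quantile normalization, and 9 of 10 members lay above it in each of these 3 (8 as reported). That count was 3 with no filter, 1 with either set of library weights, 3 when wild-type replicate 3 was left out, 5 when knockout replicate 2 was, and 9 to 10 under the other alternatives. Lower genes made up 86.2% of those past an unadjusted p of 0.05 as deposited, and 48.3%, 56.6% and 51.4% on those scales. No paired analysis was possible because the labels give each mouse its own number and no number is shared between the genotypes. Depth is unknown, and 3 mice per genotype limit what could be seen.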
